A study of Rattus norvegicus with 15 samples.

Results

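Treatment with a broad-spectrum antibiotic cocktail was followed in the colon of TG rats at 3 M of age, by comparing 3 treated libraries (TG-Ab 1, 2 and 3) with 3 untreated libraries (TG-C 1, 2 and 3) of the same numbers. These were the 6 samples, of 15 in the series, whose titles name transgenic rats with or without antibiotics, and each treated library was paired with the control library that carried its number. TG rats carry a human transgene on a bacterial artificial chromosome under the human promoter, on an outbred Sprague Dawley background, and TG-C and TG-Ab rats both carry it. TG-Ab rats had received amoxicillin/clavulanic acid, vancomycin, neomycin, cefuroxime, streptomycin and ampicillin in sucrose-containing drinking water for 2 weeks from 2.5 M, starting at a lower dose. The sources do not state whether control rats drank sucrose, so antibiotics and sucrose cannot be told apart here. WT rats of the same age without (WT-C) and with antibiotics (WT-Ab), 3 libraries each, served for comparison. RNA came from the mucosa and submucosa of the colon (the MS tissue layer), which the sample labels call colon epithelial. Neither the labels nor the methods say that each library was made from a different rat, so p-values measure a spread between libraries. In TG rats, where the number was a block, this is the spread of the differences between treated and control libraries of the same number. Nothing states what the numbers mark.

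The colon mucosa is a single sheet of absorptive, mucus-secreting and hormone-secreting cells over connective tissue rich in immune cells, and it faces the densest bacterial community of the body. Bacteria of the lumen ferment fibre to short-chain fatty acids, modify bile acids and release wall fragments, and epithelial and immune cells respond to these with receptors, antimicrobial proteins, mucus and metabolic genes. Broad-spectrum antibiotics remove much of this community, and the gene expression of the mucosa is one place where the loss can be read.

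Genes are listed by Ensembl ID, and no ID could be paired with a symbol (0 of 32883). What each changed gene does and markers of cell types were therefore not analysed here, and the labelled cell type was not checked. The genes described are numbered by the size of their change, from rise 1 to rise 11 and from fall 1 to fall 9, and placed by their coordinates in the Rnor6 annotation of the count tables. IDs are given for the first 2 in each direction.

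Total counts ranged from 17383305 to 28685094 in the TG libraries, with TG-C 2 the deepest. Libraries differed more between pairs than with treatment. Over the 12283 genes tested, the pair number accounted for 71.8% of the variance in log2 CPM, treatment for 15.6% and the remainder for 12.6%. CPM is a count divided by the library's total and scaled to 1 common size. For log2 CPM the totals were those of the genes tested, adjusted by TMM, a scaling between libraries. Pair 1 stood apart on the first principal component, which held 64.1% of the variance, with scores of -92.3 in TG-C 1 and -57.4 in TG-Ab 1 against 18.6 to 49.7 in the other libraries. On the second component, TG-Ab lay above TG-C within each pair. The share of counts from mitochondrial genes was 6.05%, 11.5% and 13.4% in TG-C 1, 2 and 3, and 9.35%, 11.04% and 13.7% in TG-Ab 1, 2 and 3. Its mean difference of 1.06 percentage points (SD 1.98, n = 3 pairs) gave p = 0.75 in a two-sided exact permutation test within pairs, whose smallest possible p is 0.25. The part of these differences in the results below was not tested, and counts without pair 1 are given beside the counts of genes tested in TG rats and of the interaction.

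**Figure D1:**
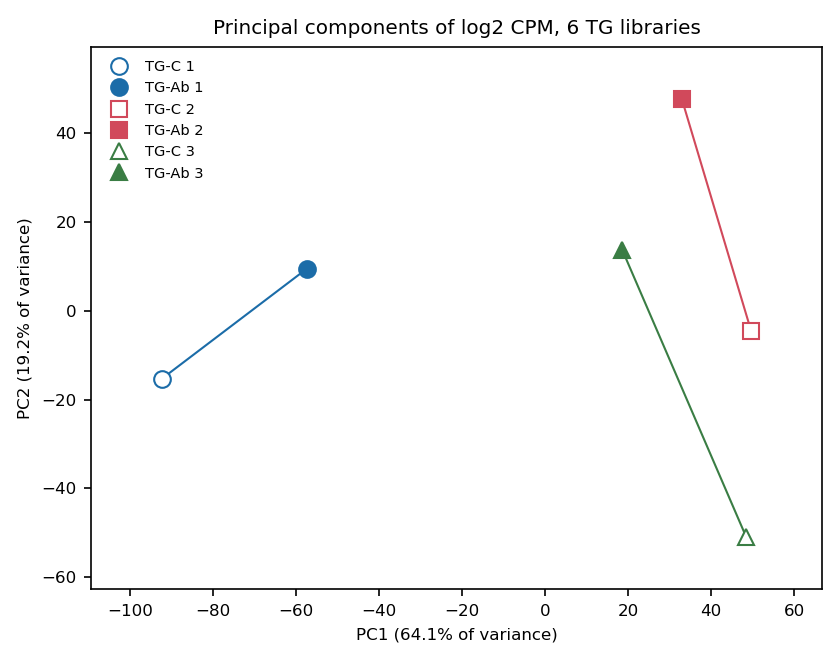
Scores of the 6 TG libraries on the first (x axis) and second (y axis) principal component of log2 CPM, with the share of variance on each axis. Open symbols are TG-C, filled symbols TG-Ab, and a line joins each pair. Pair 1 lies at the left on PC1, apart from pairs 2 and 3, while each TG-Ab library lies above its control on PC2.

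To find genes that changed the same way in every pair, edgeR's quasi-likelihood test was fitted with the pair number as a block and Benjamini-Hochberg adjustment over all 12283 genes. At an adjusted p under 0.05, 20 genes passed (0.163% of those tested), of which 11 were higher in TG-Ab (0.0896%) and 9 lower (0.0733%). Each of the 20 moved the same way, by at least 2-fold, in all 3 pairs, against 1.16% of all genes tested. Rises ranged from 2.84-fold to 111-fold (median 10.6-fold) and falls from 2.64-fold to 71.7-fold (median 7.17-fold). For 18 of the 20 the TG-C and TG-Ab libraries did not overlap in CPM, compared with 14.6% of all genes tested. The same libraries chose the 20 genes, and some genes passed the filter only through the group where they are high. The counts of genes alike in all pairs and of genes without overlap are therefore descriptions and no separate support. The 20 genes lay on 11 chromosomes. In whole tissue, fewer cells of a type and less RNA per cell cannot be told apart. The last gene called had an adjusted p of 0.0487 and the next gene, not called, 0.0503.

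These calls depend on the pairing, the filter and the libraries in the fit. Without the block, 1 gene passed, rise 4 (adjusted p = 0.0388 in edgeR's quasi-likelihood test), although the direction was kept for all 20. Without pair 1, 1925 genes passed (1032 higher and 893 lower), without pair 2, 71 genes, and without pair 3, 40 genes. The 20 genes were called in each of these 3 fits, but the fits reuse libraries that chose them. Their repeat calls are therefore no separate support, and more genes passed with fewer libraries. With 4 CPM required in every library 9 of the 20 genes were tested and 0 genes passed (smallest adjusted p = 0.0618), with 1499 genes at an unadjusted p under 0.05. With all 12 libraries in 1 fit 18 genes passed, 9 of them among the 20. On simulated data the paired test made more false calls than its threshold states.

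Rise 1 (ENSRNOG00000006873, minus strand of chromosome 10 from 11757682 to 11760620) was almost silent in TG-C, at 0.226, 0.0697 and 0.903 CPM in pairs 1, 2 and 3, and measured 32.4, 20.998 and 75.9 CPM in TG-Ab. The control values rest on 4, 2 and 16 counts. All TG-Ab libraries lay far above all TG-C libraries, and the log2 fold change was 6.79 ± 0.36 (SE, adjusted p = 0.0142 in edgeR's quasi-likelihood test). Rise 2 (ENSRNOG00000001955, minus strand of chromosome 11 from 54543731 to 54545230) measured 0.622, 1.12 and 2.82 CPM in TG-C and 53.5, 22.3 and 97.3 CPM in TG-Ab, with a log2 fold change of 5.04 ± 0.43 (adjusted p = 0.0427). Rise 5, the next called gene along the same strand (54565472 to 54567357), measured 0.453, 0.628 and 1.13 CPM in TG-C and 19.6, 8.37 and 47.2 CPM in TG-Ab. In both of these genes pair 3 had the highest level and pair 2 the lowest level after treatment.

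Rises 3 and 4 started from the same low level in every control. Rise 3 (chromosome 15 from 106800081 to 106844426) measured 1.02, 1.05 and 1.02 CPM in TG-C and 22.1, 34.6 and 50.3 CPM in TG-Ab. Rise 4 (chromosome 11 from 67465236 to 67470941) measured 0.396, 0.453 and 0.282 CPM in TG-C and 12.1, 11.2 and 10.1 CPM in TG-Ab, the narrowest spread after treatment among the 4 largest rises. The log2 fold changes were 4.91 ± 0.27 for rise 3 and 4.73 ± 0.30 for rise 4. Another gene on the same strand overlaps rise 4, so its counts are uncertain.

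Rises 6, 7 and 8 rose 5.93-fold to 10.6-fold. Rises 6 and 8 were above 4 CPM in every control, and rise 7 was below 4 CPM in every control. Rise 6 (chromosome 2 from 248451547 to 248484100) went from 4.98, 6.97 and 8.07 CPM to 38.9, 87.4 and 127 CPM, with the same order of pairs before and after treatment. Rise 7 (chromosome 10 from 59799123 to 59824679) went from 1.98, 2.61 and 1.75 CPM to 14.2, 30.0 and 24.8 CPM. Rise 8 (chromosome 13 from 36094520 to 36101411) went from 6.11, 7.53 and 4.74 CPM to 37.6, 41.1 and 39.2 CPM, so the TG-Ab libraries were close together (39.3 ± 1.75 CPM, SD, n = 3).

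Rises 9, 10 and 11 were the smallest, and in 2 of them the groups overlapped although every pair rose. Rise 9 (chromosome 3 from 61590376 to 61593692) measured 1.58, 13.7 and 10.7 CPM in TG-C and 7.08, 56.3 and 41.5 CPM in TG-Ab. Its differences within pairs were 2.05, 1.88 and 1.75 on the log2 scale, but TG-Ab 1 lay below TG-C 2 and TG-C 3. Rise 10 (chromosome 9 from 52894365 to 52912293) measured 10.1, 20.7 and 16.2 CPM in TG-C and 30.7, 69.6 and 73.1 CPM in TG-Ab. Rise 11 (chromosome 4 from 56711049 to 56738791) measured 37.3, 121 and 28.3 CPM in TG-C and 94.1, 401 and 102 CPM in TG-Ab, with pair 2 above the others in both groups. Without the block the adjusted p of rise 9 was 0.806 and that of rise 11 was 0.804.

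**Figure D2:**
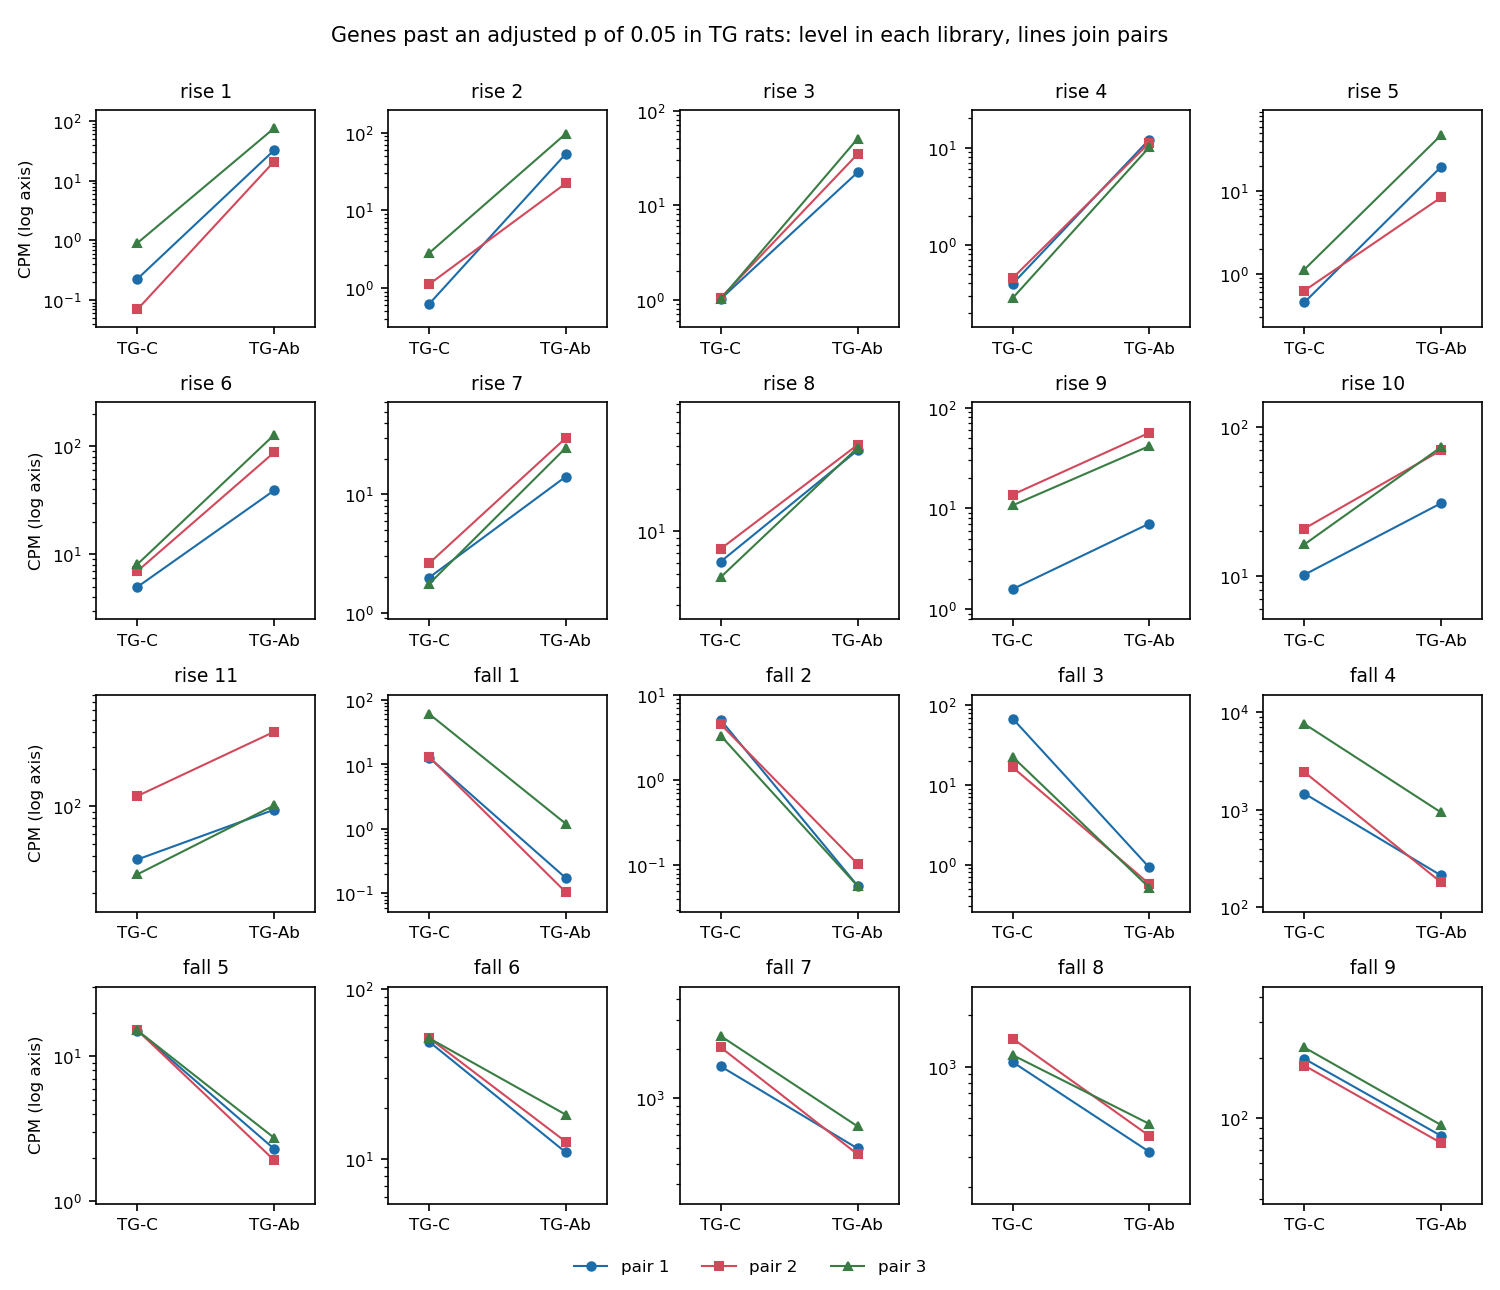
Level of each of the 20 called genes in CPM (y axis, log scale, own range in each panel) in TG-C and TG-Ab (x axis). Each line joins the libraries of a pair and each point is 1 library. Lines run the same way in all 3 pairs of every panel, from 1.02 to 50.3 CPM in pair 3 of rise 3, for example, and rise 9 and rise 11 show pairs at different levels.

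Among the genes that fell, the first 3 were close to 0 after treatment. Fall 1 (ENSRNOG00000008252, plus strand of chromosome 5 from 57239086 to 57250662) measured 12.8, 13.1 and 60.8 CPM in TG-C and 0.173, 0.104 and 1.20 CPM in TG-Ab, where 3, 2 and 21 counts were left. Its log2 fold change was -6.16 ± 0.30 (SE, adjusted p = 0.0142 in edgeR's quasi-likelihood test). Fall 2 (ENSRNOG00000047072, minus strand of chromosome 7 from 116275817 to 116284587) measured 5.09, 4.53 and 3.33 CPM in TG-C and 0.0575, 0.104 and 0.0571 CPM in TG-Ab, that is 1, 2 and 1 counts. Its log2 fold change was -5.87 ± 0.51 (adjusted p = 0.0427), the largest SE of the 20 genes. Fall 3, a gene of a single exon on chromosome 1 (84573496 to 84573959), measured 68.1, 16.7 and 22.5 CPM in TG-C and 0.920, 0.572 and 0.514 CPM in TG-Ab. No TG-Ab library of these genes reached the lowest TG-C library.

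Falls 4, 7 and 8 were abundant transcripts. Fall 4 (chromosome 2 from 88217188 to 88227479) was the most abundant called gene in TG-C. It was also the highest per length of its exons, a measure that holds only if the libraries cover whole transcripts. It measured 1471, 2441 and 7614 CPM in TG-C and 213, 181 and 942 CPM in TG-Ab. The highest treated library, TG-Ab 3, belonged to the pair with the highest control and still lay below all controls. Its log2 fold change was -3.31 ± 0.27 (adjusted p = 0.0398). Fall 7 (chromosome 4 from 169147243 to 169181966) went from 1566, 2042 and 2394 CPM to 496, 457 and 676 CPM, a 4.03-fold fall. Fall 8 (chromosome 10 from 87342619 to 87351045) went from 1062, 1453 and 1167 CPM to 320, 396 and 465 CPM, a 3.42-fold fall.

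Falls 5, 6 and 9 had controls at nearly 1 level. Fall 5 (chromosome 9 from 47134034 to 47182170) measured 15.1, 15.2 and 15.1 CPM in TG-C and 2.30, 1.92 and 2.74 CPM in TG-Ab. Fall 6 (chromosome 7 from 118927008 to 118933812) measured 49.0, 51.5 and 51.4 CPM in TG-C and 10.99, 12.7 and 18.3 CPM in TG-Ab. A gene on the opposite strand overlaps fall 6. Fall 9 (chromosome 1 from 72810545 to 72859161) measured 197, 183 and 224 CPM in TG-C and 82.0, 75.6 and 92.8 CPM in TG-Ab, the smallest change of the 20 (log2 fold change -1.40 ± 0.12, adjusted p = 0.0427).

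Summed over each list, the 11 genes that rose took 64.8, 176 and 75.9 CPM in TG-C and 362, 783 and 688 CPM in TG-Ab. The 9 genes that fell took 4447, 6220 and 11552 CPM in TG-C and 1125, 1125 and 2199 CPM in TG-Ab. Per kb of exon, the genes that rose had a median level of 3.02 CPM in TG-C and 30.2 CPM in TG-Ab, and those that fell had 77.0 and 8.68 CPM. Levels per kb hold for whole-transcript libraries only, and the sources differ on the library type. The called genes had a median exon length of 1496 bases, against 2438 bases over all genes tested.

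At a looser threshold, an unadjusted p under 0.05 with at least a 2-fold change, 414 genes passed (3.37% of those tested), 231 higher (1.88%) and 183 lower (1.49%). This count was 724 without pair 1 and 267 without the block. Of the 414 genes, 404 moved the same way in all 3 pairs (3.29%), 230 higher (1.87%) and 174 lower (1.42%). An unadjusted p under 0.05 alone was met by 1741 genes (14.2%), by 3800 without pair 1, by 639 of 11990 without pair 2, by 1198 without pair 3 and by 876 without the block. Regardless of any test, 4516 genes (36.8%) moved the same way in all 3 pairs, 2233 higher (18.2%) and 2283 lower (18.6%). With plain CPM, which moved the median of all genes by 0.13 on the log2 scale, 3446 genes were higher and 1290 lower, so the split of small changes depends on the scaling, while the 20 called genes kept their direction in all pairs. A change of at least 2-fold in every pair was shown by 143 genes (1.16%), 69 higher (0.562%) and 74 lower (0.602%). The smallest pair difference just inside this limit was 1.01 and the largest just outside it was 0.99 on the log2 scale.

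The pairs did not change alike over all genes. Changes of at least 2-fold numbered 511 higher and 585 lower in pair 1, 443 and 352 in pair 2, and 946 and 443 in pair 3. Across the 12283 genes, which are not independent replicates, pair differences correlated with r = 0.658 between pairs 2 and 3, 0.283 between pairs 1 and 2 and 0.061 between pairs 1 and 3.

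Genes with no count at all in TG-Ab, found after their values were seen, did not pass the adjusted threshold. A gene on chromosome 9 (94197618 to 94201084) had 85, 202 and 309 counts in TG-C and 0 in each TG-Ab library, at least 168-fold lower by the limit of 3 counts over the group (adjusted p = 0.0832 in edgeR's quasi-likelihood test). A single-exon gene on chromosome 7 (121342679 to 121343013) had 183, 159 and 132 counts in TG-C and 0 in TG-Ab, at least 133-fold lower (adjusted p = 0.0832). In WT rats these genes were detected in some libraries of either group and not in others. The gene on chromosome 9 had 209, 0 and 0 counts in WT-C and 0, 0 and 100 in WT-Ab, and the gene on chromosome 7 had 93, 1 and 0 counts in WT-C and 55, 91 and 104 in WT-Ab.

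Some of the genes with at least a 2-fold change lay next to each other. Joining members of the list of 404 that were at most 100 kb apart gave 22 runs, which held 49 genes (12.1% of the list). In 19 of the runs (42 genes) all members moved in 1 direction, 12 runs upward and 7 downward, and 3 runs were mixed. Only members of the list were joined, so a run can span tested genes that were not in the list. The run of rise 7, for example, spans 4 tested genes, of which 3 were members. Most tested genes (89.4%) have another tested gene within this distance, and how many runs would form without any relation between neighbours was not tested. Neighbouring genes can be copies of each other, and reads that align to several copies are left out of the counts, so single values within a run are uncertain.

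The run with the most genes held 4, on the plus strand of chromosome 3 between 61590376 and 61622359, of which rise 9 is the first. The other three, in order along the chromosome, had log2 fold changes of 1.77 ± 0.36, 1.41 ± 0.23 and 1.04 ± 0.32 (SE) and adjusted p-values of 0.150, 0.116 and 0.239, none of which passed. Within each group pair 1 was the lowest in all 4 genes, for example at 1.64 CPM in TG-C 1 and 4.14 CPM in TG-Ab 1 in the third gene against 4.78 and 13.4 CPM in pair 2. On chromosome 2, rise 6 lay between a gene starting at 248398917 (0.735, 0.697 and 0.395 CPM in TG-C and 3.97, 7.95 and 10.7 CPM in TG-Ab) and a gene starting at 248544104 (0.735, 1.08 and 0.339 CPM in TG-C and 7.08, 10.6 and 15.5 CPM in TG-Ab). Their log2 fold changes were 3.39 ± 0.48 and 3.75 ± 0.49, beside 3.41 ± 0.22 for rise 6, and their adjusted p-values of 0.104 and 0.0890 missed the threshold.

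Rise 7 was followed on the plus strand of chromosome 10 by genes starting at 59831241 (log2 fold change 1.95 ± 0.45) and 59879850 (1.45 ± 0.37), neither of which passed the adjusted threshold. Rises 2 and 5 formed a run of their own on chromosome 11. On chromosome 2, fall 4 lay beside a gene starting at 88282961 on the other strand, which measured 5.88, 9.83 and 14.3 CPM in TG-C and 3.34, 1.61 and 3.88 CPM in TG-Ab (adjusted p = 0.155).

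Runs without a called gene included a pair of genes on chromosome 1. The first (258074860 to 258139176) measured 62.4, 108 and 397 CPM in TG-C and 1.73, 0.572 and 24.9 CPM in TG-Ab, and the second (258210344 to 258252448) measured 9.28, 18.3 and 45.5 CPM in TG-C and 2.88, 6.50 and 12.6 CPM in TG-Ab. Their log2 fold changes were -5.36 ± 0.65 and -1.81 ± 0.19, with adjusted p-values of 0.0832 and 0.0590. On chromosome 8, a gene from 50537009 to 50539376 measured 5.71, 1.85 and 23.7 CPM in TG-C and 0.173, 0.052 and 0 CPM in TG-Ab (adjusted p = 0.0904), and its neighbour starting at 50525091 measured 95.7, 67.4 and 224 CPM in TG-C and 66.2, 36.0 and 33.2 CPM in TG-Ab (adjusted p = 0.261). These runs were singled out after their values were seen.

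**Figure D3:**
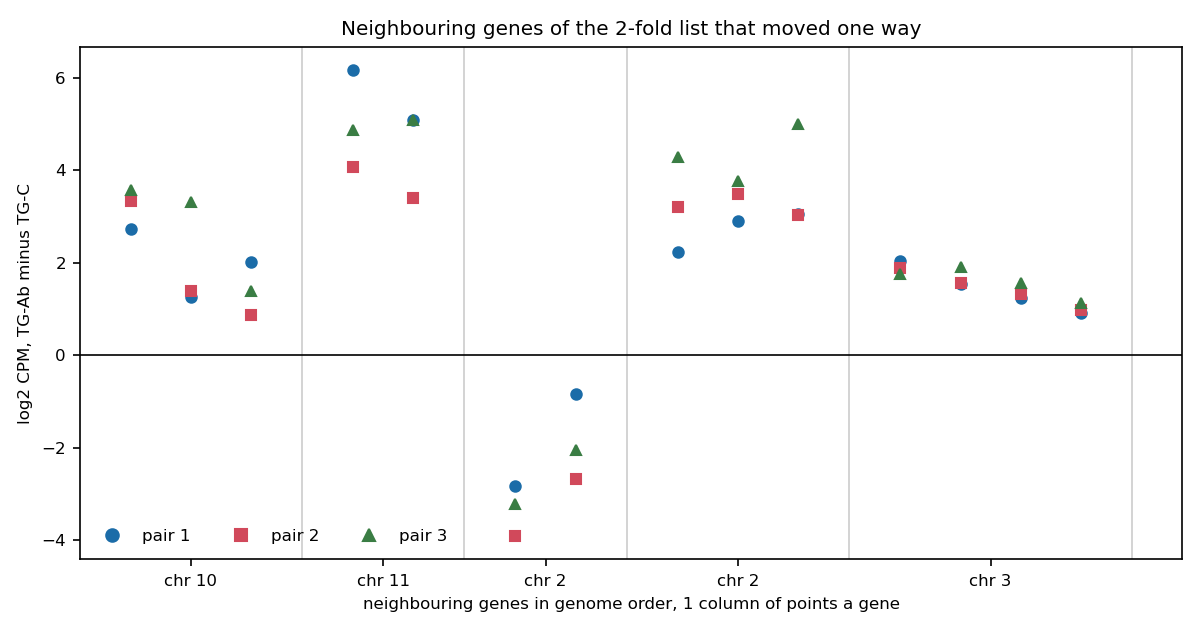
Difference in log2 CPM between TG-Ab and TG-C (y axis) in each pair for the runs of neighbouring genes that moved 1 way and hold a called gene. Each column of 3 points is 1 gene, in genome order (x axis, equal spacing), and grey lines separate runs. All points of a run lie on 1 side of 0, from 6.16 for rise 2 in pair 1 to -3.90 for fall 4 in pair 2.

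WT rats were used to see how the same genes behaved in libraries that took no part in the choice. In WT rats no gene passed the adjusted threshold in edgeR's quasi-likelihood test (smallest adjusted p = 0.182), while 1987 of 12193 genes had an unadjusted p under 0.05 (16.3%, of which 8.85% higher and 7.45% lower). Without WT-Ab 1, a library that stood apart from the other WT-Ab libraries, 187 genes passed, 6 of them among the 20 genes called in TG rats. Of the 20 genes, 19 were tested in WT rats, and 15 of these (78.9%) had the same sign of change as in TG rats, against 70.3% of the 12019 genes tested in both genotypes. The same sign with an unadjusted p under 0.05 in WT rats was found for 10 of the 19, against 14.3% of the 12019 genes, namely for 7 of 11 rises and 3 of 8 falls. For 12 of the 20 genes WT-C and WT-Ab did not overlap, all in the direction seen in TG rats, against 24.3% of the genes tested in TG rats (31.2% in either direction). Of the 414 genes changed at least 2-fold in TG rats, 385 were tested in WT rats and 350 (90.9%) had the same sign there.

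For rises 3, 4, 6, 7, 8, 10 and 11 the WT-Ab libraries also lay above WT-C. For falls 1, 2, 4, 5 and 7 they also lay below WT-C, although fall 2 was not tested in WT rats. Rise 6 measured 3.80, 2.83 and 7.10 CPM in WT-C and 85.6, 45.0 and 85.7 CPM in WT-Ab, a log2 fold change of 3.83 ± 0.43 beside 3.41 ± 0.22 in TG rats. Rise 3 measured 0.810, 0.981 and 0.710 CPM in WT-C and 14.5, 7.39 and 18.3 CPM in WT-Ab (log2 fold change 3.85 ± 0.42). Among the falls, fall 1 measured 63.9, 122 and 39.8 CPM in WT-C and 0.0638, 0.693 and 4.49 CPM in WT-Ab, with a log2 fold change of -5.54 ± 1.17. Fall 5 measured 11.7, 12.8 and 9.45 CPM in WT-C and 2.11, 4.45 and 4.998 CPM in WT-Ab. In all 4 genes whose values are given, no WT-Ab library overlapped WT-C, with adjusted p-values of 0.183 to 0.238 in WT rats.

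Other genes had the opposite sign in WT rats or overlapped between WT-C and WT-Ab. Rise 2 measured 0.312, 1.21 and 24.1 CPM in WT-C and 5.87, 13.0 and 7.95 CPM in WT-Ab, and rise 5 measured 0, 0.404 and 10.6 CPM in WT-C and 1.72, 2.37 and 4.42 CPM in WT-Ab, so in both genes WT-C 3 lay above all WT-Ab libraries. Rise 1 had higher controls in WT than in TG rats, at 2.74, 1.62 and 3.66 CPM, and measured 1.28, 8.37 and 7.50 CPM in WT-Ab, of which WT-Ab 2 and 3 lay above all WT-C libraries and WT-Ab 1 below them (log2 fold change 0.99 ± 0.71, unadjusted p = 0.211 in edgeR's quasi-likelihood test). Fall 3 measured 20.9, 0.808 and 0.710 CPM in WT-C and 27.1, 20.8 and 23.3 CPM in WT-Ab, so that its level in 2 untreated WT libraries was as low as in TG-Ab. Fall 9 measured 128, 109 and 76.8 CPM in WT-C and 67.9, 160 and 143 CPM in WT-Ab. These 4 genes with the opposite sign in WT rats, rises 2 and 5 and falls 3 and 9, had unadjusted p-values from 0.259 to 0.968 there.

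Whether the response itself differed between the genotypes was tested as the interaction of genotype and antibiotics over 12 libraries. By edgeR's quasi-likelihood test 0 genes had an interaction past the adjusted threshold (smallest adjusted p = 0.889), and 525 of 12457 genes had an unadjusted p under 0.05 (4.21%). Of the 20 called genes, 9 had an unadjusted p under 0.05. The 20 were chosen by their change in TG rats, which is part of the interaction. Counts of interactions among them are therefore raised by the choice and cannot be set against the share of all genes. The largest differences among the 20 on the log2 scale were -7.14 ± 1.69 for fall 3, 5.91 ± 1.01 for rise 1, 5.22 ± 1.93 for rise 5 and 5.17 ± 1.77 for rise 2 (SE). With the DESeq2 Wald test 13 genes passed, 2 of them among the 20. Leaving out the libraries numbered 1 gave 4 genes and leaving out WT-Ab 1 gave 1 gene, in each case with 1 of the 20 among them. In the quasi-likelihood fit over all 12 libraries none of the 20 changes was shown to be particular to TG rats, nor were they shown to be alike in both genotypes.

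**Figure D4:**
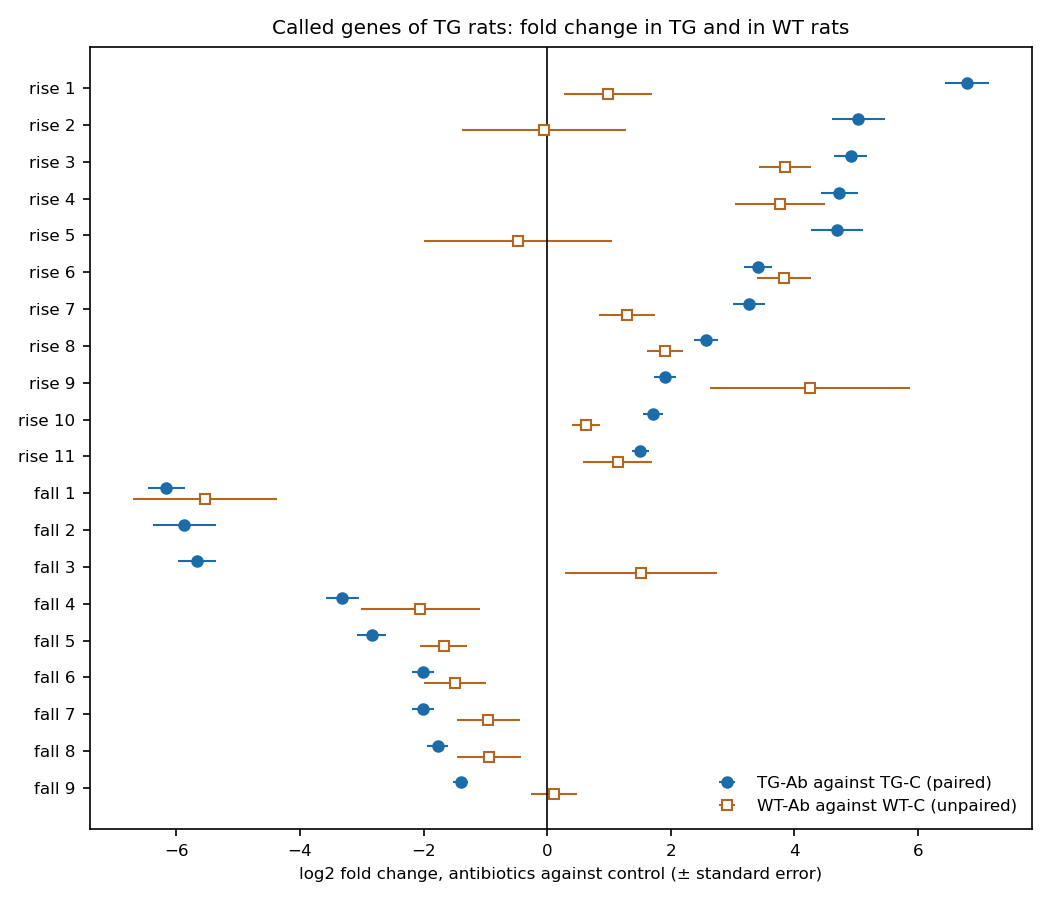
Log2 fold change of antibiotics against control with its standard error (x axis) for the 20 called genes (y axis), in TG rats from the paired fit (filled circles) and in WT rats from the unpaired fit (open squares). Fall 2 has no WT value because it was not tested there. Both points lie on the same side of 0 for 15 genes, and on opposite sides for rise 2, rise 5, fall 3 and fall 9.

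Mitochondrial transcripts did not pass the test. Of 16 mitochondrial genes tested, 14 had a positive log2 fold change in TG-Ab (median 0.23, against -0.0078 over all genes tested). The share of all genes with a positive change was not counted, so the 14 are a description only. Of the 16, 7 were higher in all 3 pairs, against 18.2% of all genes tested. In edgeR's quasi-likelihood test 4 had an unadjusted p under 0.05, against 14.2% of all genes tested, and the smallest adjusted p was 0.226. Mitochondrial genes are not independent of each other, and whether these counts exceed those shares was not tested.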

How the data were processed

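RNA of 12 colon MS tissue layer libraries at 3 M was analysed, 6 from TG rats. The authors deposited raw counts per gene, made, per the file headers, with featureCounts 2.0.0 over exons of the Rnor6 annotation (mapping quality of at least 3, strand setting 2, single reads). Per the submitters' processing notes, bcl2fastq 2.19.1 and STAR 2.5.4a were also used. The methods name QuantSeq 3' libraries, whereas the labels name NEBNext poly(A) libraries. Counts of whole transcripts grow with length and those of 3' ends do not, so levels per kb hold for the former only. Per the file headers, the option that counts multi-mapping reads was not set, so reads that align to several near-identical genes are left out.

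Genes that reached 4 CPM in 1 or more of the libraries compared were kept, scaled by TMM and tested two-sided in R 4.3.3 with edgeR 4.0.16 (glmQLFit, robust, and glmQLFTest), with the number as a block in TG rats and treatment alone in WT rats. The interaction used all 12 libraries with the number block within TG rats. Pair differences, principal components and variance shares were taken on log2 CPM (TMM scaling, prior count 2). Standard errors were derived from the fold change and the F statistic. The pairing was taken from the numbers in the titles. Deviations from the group means correlated with r = 0.803, 0.797 and 0.584 for the same number, and -0.798 to 0.281 for other numbers. Deviations within a group cancel out, so negative values between different numbers are partly built in. Number 1 also stood apart in both groups, and these are the counts that were tested. The correlations therefore cannot show that the numbers mark pairs. The paired test had 2 residual degrees of freedom. On simulated data, with changes placed only in well-counted genes, it made more false calls than its threshold states. The reason was not tested. No TG libraries of the same group agreed within sampling noise (mean chi-square per gene of at least 56.8), and WT libraries were not checked in this way.

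Genes were to be named if called at an adjusted p under 0.05 and moved the same way in all pairs. Since no symbol could be paired, 19 function lists and 20 marker lists were not applied, and IDs are given for 2 genes a direction. The transgene is not reported here. Members, lists and tests were chosen with earlier results of these data known. Alternatives were no block, other scalings, filters and prior counts, DESeq2 1.42.0, a likelihood ratio test, all libraries in 1 fit and leaving out each pair. Leaving out WT-Ab 1, which stood apart, was added after the data were seen.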

Additional observations from a re-analysis of the deposited data

How the results depend on the processing

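The count of genes at an adjusted p under 0.05 in TG rats, 20 with the pairs as a block, was 1 with no replicate block, 99 without a filter, 0 with 4 CPM in every library (9 of the 20 tested, smallest adjusted p = 0.0618, 1499 genes at an unadjusted p under 0.05), 617 by the DESeq2 Wald test, 760 by edgeR's likelihood ratio test and 40 to 1925 when a pair was left out. With DESeq2 size factors it was 22, and with all 12 libraries in 1 fit it was 18, of which 9 were among the 20. The count at an unadjusted p and 2-fold, 414, was 267 with no replicate block, 671 without a filter, 188 with 4 CPM in every library and 352 to 724 when a pair was left out. The count of genes 2-fold in every pair, 143, was 55 with 4 CPM in every library and 229 without a filter. The interaction, with 0 genes, gave 13 by the DESeq2 Wald test, 0 with no replicate block, 0 to 4 when a number was left out and 1 without WT-Ab replicate 1 (added later). Without WT-Ab replicate 1, 187 genes passed in WT rats, 6 of them among the 20. In WT rats, deviations of the same number correlated with r from -0.148 to 0.208. With the replicate block there, 10 of the 19 called genes tested still had the same sign and an unadjusted p under 0.05. The difference in mitochondrial share was -0.0675 to 1.80 points when a pair was left out. No called gene changed sign under an alternative that tested it. Over these alternatives, 150 values of called genes stayed past the threshold and 39 did not, and of those of the other genes in the runs of neighbours 127 passed it and 273 did not. The cause of these shifts was not tested. Genes that stayed under 4 CPM in all 6 libraries were not tested.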
